A study of Mus musculus with 4 samples.

Results

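The 9 genes described here, of retinal blood vessel growth and of norrin signalling, were followed through the nuclei of the mouse retina and the tissue attached to it. They were chosen by name, as the rows of the gene tables with the symbols Vegfa, Flt1, Kdr, Tek, Angpt1, Ndp, Fzd4, Tspan12 and Lrp5, and all 9 of 9 were present among the 31053 genes measured. Each was read as a ligand, a receptor or a partner of a receptor, and its level was set side by side in Müller glia, horizontal cells, endothelium, fibroblasts and retinal pigment epithelium.

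The study profiled RNA of single nuclei from 4 left eyes by droplet sequencing on the 10x platform, which tags every captured RNA molecule with a unique molecular identifier (UMI). The labels give 2 animals of 2.5 months, whose tissue they describe as wild type, and 2 animals of 5 months, for which they give no genotype; strain, sex and treatment are not stated for either age. Each library came from 1 animal, so n = 2 per age. Both 2.5-month tables were written by one version of Cell Ranger and both 5-month tables by another, so the effects of age, of software and of any difference of genotype cannot be told apart. The series title speaks of human retina, whereas the labels and the gene identifiers are those of mouse.

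VEGF-A, the product of Vegfa, is the main growth factor of blood vessels; in the retina it is made in response to low oxygen and, by the pigment epithelium, maintains the vessels of the choroid. It binds VEGF receptor 1 (Flt1), a high-affinity receptor that also exists in a soluble form that traps the ligand, and VEGF receptor 2 (Kdr), which carries most of the growth signal into endothelial cells. Angiopoietin 1 (Angpt1) is released by cells around vessels and stabilises them through the endothelial receptor Tie2 (Tek). Norrin (Ndp) is a secreted protein that is not a Wnt but activates the Wnt receptor frizzled 4 (Fzd4) together with the co-receptor Lrp5 and the tetraspanin Tspan12, and this signal builds the capillary beds and the blood-retina barrier. Mutations in Ndp, Fzd4, Lrp5 or Tspan12 cause familial exudative vitreoretinopathy and related failures of retinal vessel growth.

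Promoters are shown for 3 receptor genes on which the results turn: Flt1 and Kdr, found in both endothelium and Müller glia, and Tek, found in endothelium. The 250 bases before the start of each, 5′ to 3′ on the gene's strand, from RefSeq for build GRCm38.p6, are given with matches to 4 short motifs in capitals.
Flt1, chr5:147726012-147726261, minus strand: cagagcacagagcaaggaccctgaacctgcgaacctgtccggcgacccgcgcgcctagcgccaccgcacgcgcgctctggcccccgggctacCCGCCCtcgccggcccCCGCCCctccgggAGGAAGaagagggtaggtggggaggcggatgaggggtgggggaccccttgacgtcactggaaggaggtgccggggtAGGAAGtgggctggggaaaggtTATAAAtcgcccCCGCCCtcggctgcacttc
Kdr, chr5:75978456-75978705, minus strand: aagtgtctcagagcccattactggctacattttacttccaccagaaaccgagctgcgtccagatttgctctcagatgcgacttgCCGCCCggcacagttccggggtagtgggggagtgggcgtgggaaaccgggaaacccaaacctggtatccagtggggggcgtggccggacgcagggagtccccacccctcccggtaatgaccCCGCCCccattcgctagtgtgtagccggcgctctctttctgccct
Tek, chr4:94739039-94739288, plus strand: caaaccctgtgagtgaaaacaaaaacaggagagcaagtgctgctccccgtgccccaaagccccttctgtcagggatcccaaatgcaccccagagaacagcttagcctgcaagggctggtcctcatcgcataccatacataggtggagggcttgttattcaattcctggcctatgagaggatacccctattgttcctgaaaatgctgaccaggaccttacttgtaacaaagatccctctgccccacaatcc
Both strands were searched, and no 2 of the matches marked overlap. An ETS-like core was searched as AGGAAG. It was held by 29.5% of 32851 mouse promoter windows of the same length. The GC box was searched as GGGCGG and was held by 32.7% of those windows. The TATA box was searched as TATAAA and was held by 12.4%. The core of a hypoxia element was searched as ACGTG and was held by 16.6%. The Flt1 window had 2 ETS-like matches, 3 GC boxes and 1 TATA box. The Kdr window had 2 GC boxes, and the Tek window had no match to any of the 4 motifs. A match is a run of letters and was not tested for binding. The RefSeq promoter table matched 7 of the 9 genes, all but Angpt1 and Lrp5.

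In GENCODE M21 (GRCm38) the ligand genes are Vegfa at chr17:46016993-46032369, Angpt1 at chr15:42424723-42676977 and Ndp at chrX:16885521-16911774, all on the minus strand. The VEGF receptor genes lie on 1 chromosome, Flt1 at chr5:147561604-147726011 and Kdr at chr5:75932827-75978458, both on the minus strand, and Tek lies at chr4:94739289-94874976 on the plus strand. Of the norrin receptor complex, Fzd4 is at chr7:89404355-89413134 on the plus strand, and Tspan12 at chr6:21771395-21852515 and Lrp5 at chr19:3584828-3686564 are on the minus strand. Fzd4 is mostly exon, with 23.5% of its span in introns, and in the other 8 introns make up 72.1% to 97.9% of the span.

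The 4 libraries held between 19608067 and 36320257 UMIs in 7404 to 9963 barcodes, and the median nucleus had 1812.5 to 2899.5 UMIs. After filtering, 32299 nuclei were clustered without any of the 9 genes or of the vascular genes listed further on. Called doublets were then removed, and 27278 of the 30839 nuclei left were named in 13 classes from marker genes. The 5 classes compared here held 3233 nuclei of Müller glia, 1670 of fibroblasts, 322 of horizontal cells, 283 of pigment epithelium and 118 of endothelium. Each carried its own markers: the summed endothelial marker list of 10 genes stood at 7750, 7020, 6160 and 7640 counts per 1000000 UMIs (CPM) in the endothelium of the 4 libraries, and at 9.15 to 15.1 CPM in Müller glia. In the opposite direction, the Müller list stood at 9820 to 13200 CPM in Müller glia and at 623 to 1580 CPM in endothelium, against 914 to 1210 CPM in rods. The rod list was at 18800 to 19600 CPM in rods, 3280 to 4710 CPM in endothelium and 1990 to 3320 CPM in Müller glia, and its part in the levels below was not tested. The endothelium is the smallest of the 5, with 52, 15, 21 and 30 nuclei and 241820 UMIs in all, and its values are the least precise. A group of 37 nuclei that carried endothelial markers but was led by neuronal genes, with a median of 4127 UMIs a nucleus, was set aside from it after its values had been seen, and results that change when it is kept are named. Pairs of libraries shared between 0.0401% and 0.144% of their barcodes.

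Levels are given as CPM within a class and library, as mean ± SD over the 4 libraries, and differences between classes as log2 fold changes with their standard error (SE) from edgeR's quasi-likelihood test on UMIs summed per class and library, with library as a block and Benjamini-Hochberg adjustment over all 15642 genes fitted. A call is an adjusted p under 0.05. In pairs with endothelium the median difference over all genes lay away from 0. It was 0.56 for Müller glia over endothelium and 0.38 for horizontal cells over endothelium. For endothelium over fibroblasts it was −0.58, and over pigment epithelium −0.45. Levels of different genes are not compared with each other, since the counts are not scaled by gene length.

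Of the 5 classes, Vegfa was highest in the pigment epithelium. It stood there at 415, 467, 542 and 540 CPM in the 2.5-month animals 1 and 2 and the 5-month animals 1 and 2, a mean of 491 ± 61.7 CPM. Müller glia followed at 121, 145, 196 and 185 CPM (162 ± 34.9), fibroblasts at 79.4, 97.6, 215 and 160 CPM (138 ± 61.8), and horizontal cells at 101, 90.4, 86.5 and 107 CPM (96.4 ± 9.64). The lowest pigment epithelium library was above the highest library of each of the other 4 classes. Endothelium, the class that carries the receptors, had 10 Vegfa UMIs in all, at 44.9, 24.5, 0 and 69.6 CPM (34.7 ± 29.6).

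Among the other named classes, striated muscle had 392 ± 154 CPM of Vegfa over the 3 libraries with at least 10 such nuclei, the highest of them 555 and above every pigment epithelium library, cones 117 ± 25.4, bipolar cells 112 ± 16.1, melanocytes 96.3 ± 21.9, ganglion cells 83.7 ± 7.4, amacrine cells 74.0 ± 7.56, rods 34.0 ± 12.4, and macrophages or microglia 32.2 ± 24.7. From Müller glia down to endothelium, each class overlapped its neighbour in this order. Müller glia were lower than pigment epithelium by 1.55 on the log2 scale (SE 0.124, edgeR adjusted p = 3.24e-16). Müller glia were above horizontal cells by 0.52 (SE 0.155, edgeR adjusted p = 0.0051), a call lost without 5-month animal 1, when the difference was 0.35 (adjusted p = 0.156). They were above fibroblasts by 0.60 (SE 0.123, edgeR adjusted p = 4.14e-05) and above endothelium by 2.67 (SE 0.428, edgeR adjusted p = 9.06e-07). Horizontal cells and fibroblasts were not separated, with a difference of 0.08 (SE 0.169, edgeR adjusted p = 0.724). Within fibroblasts, the 3 clusters of the class differed, with 66.2 CPM of Vegfa in the largest, 103 in the next and 316 in the smallest.

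Flt1, VEGF receptor 1, was at a high level in endothelium and, at a level not separated from it, in Müller glia. Endothelium had 2100, 4330, 1680 and 2230 CPM (2580 ± 1190) and Müller glia 1560, 1580, 1720 and 1560 CPM (1600 ± 75.8). The ranges of the pair overlapped, because the lowest endothelial library, 1680 CPM, was below the highest Müller library. The fitted difference of Müller glia over endothelium was 0.20 on the log2 scale (SE 0.229, edgeR adjusted p = 0.591); DESeq2 gave −0.21 (adjusted p = 0.795), so the sign depends on the tool, and the median over all genes in this comparison was 0.56. No other class came near: fibroblasts had 72.0 ± 25.2 CPM, melanocytes 53.3 ± 36.0, pigment epithelium 40.0 ± 39.8, rods 13.1 ± 2.79 and horizontal cells 4.76 ± 6.13. Müller glia were above fibroblasts by 4.88 on the log2 scale (SE 0.258, edgeR adjusted p = 5.57e-24). The tables count all transcripts of a gene together, so the soluble and the membrane form of Flt1 were not separated.

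Kdr, VEGF receptor 2, was found in the same pair of classes. Endothelium had 656, 807, 342 and 383 CPM (547 ± 222) and Müller glia 399, 453, 491 and 445 CPM (447 ± 38.2). Endothelium was the higher of the pair in both 2.5-month animals, and Müller glia were in both 5-month animals. The fitted difference of Müller glia over endothelium was 0.38 (SE 0.186, edgeR adjusted p = 0.13). It became a call of 0.59 (adjusted p = 0.00324) when the 37 nuclei set aside were kept as endothelium, 0.70 (adjusted p = 0.0255) without 2.5-month animal 1, and 1.24 (adjusted p = 0.00293) in the 5-month libraries alone, and it was −0.12 (adjusted p = 0.766) in the 2.5-month libraries alone. Beside the 0.38 and 0.59 for Kdr, the median over all genes for Müller glia over endothelium was 0.56. The CPM means of Kdr, 447 and 547, have the opposite order to the fitted difference. Fibroblasts, at 29.3 ± 4.56 CPM, and rods, at 19.2 ± 8.62 CPM, were far lower than this pair, and horizontal cells were at 4.30 ± 4.02 CPM.

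**Figure D1:**
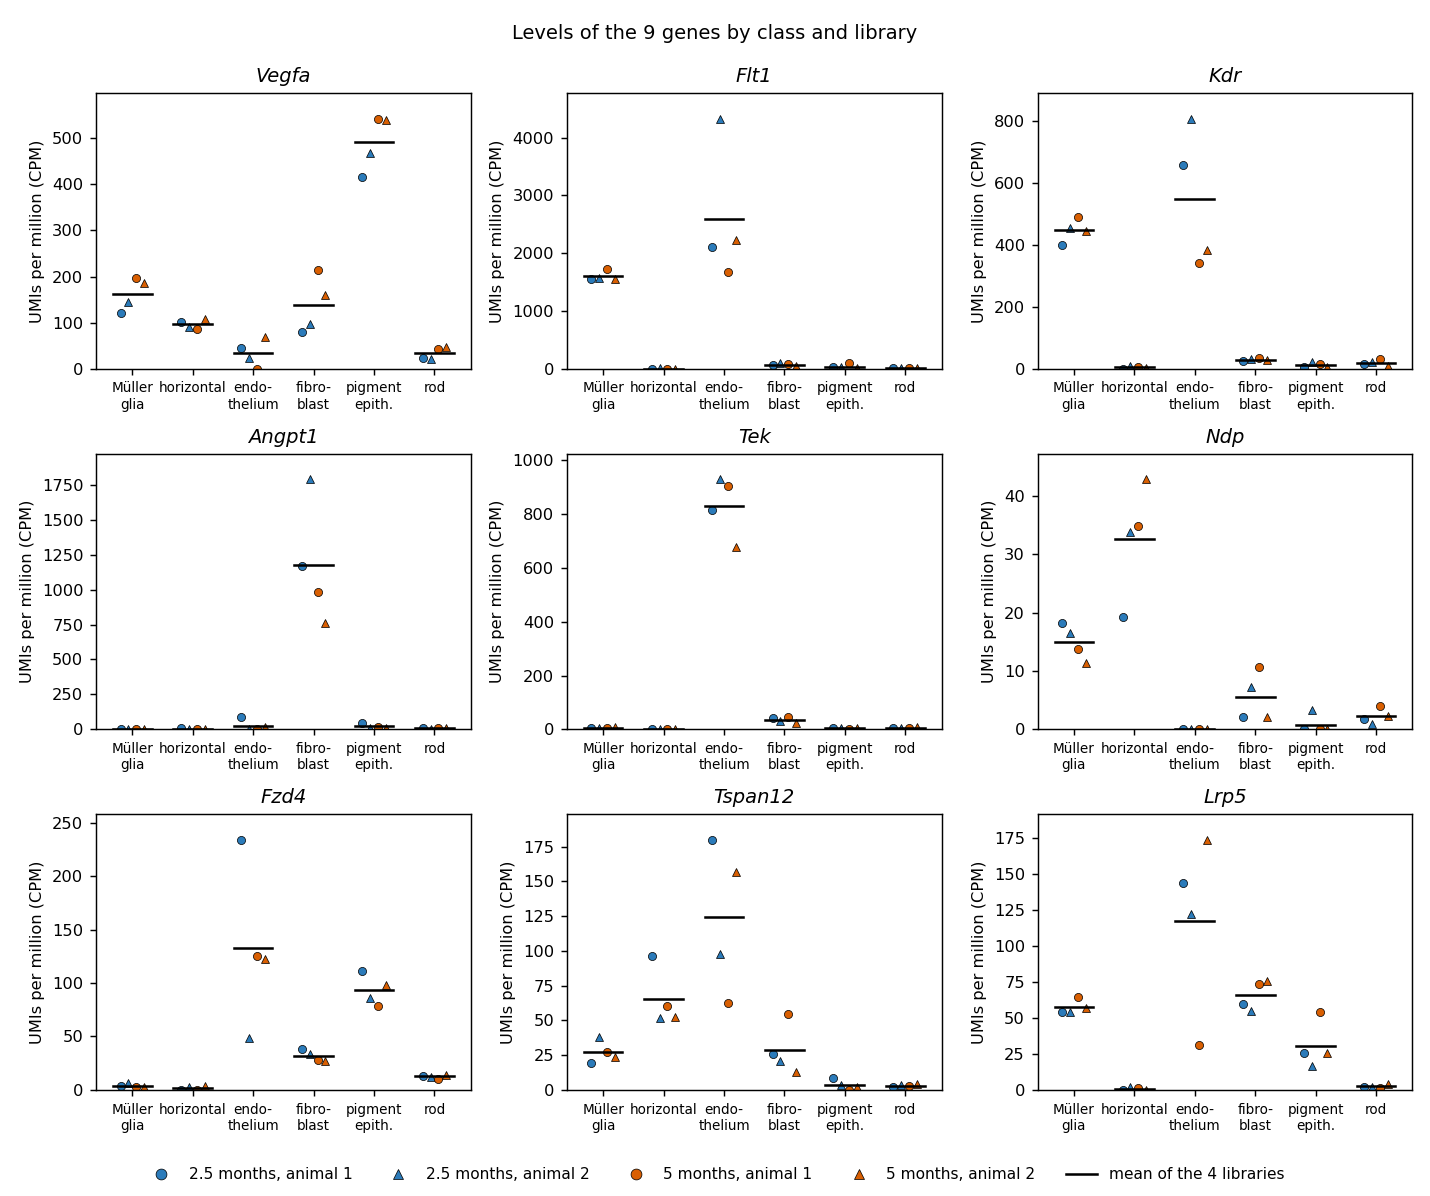
Level of each of the 9 genes in Müller glia, horizontal, endothelial, fibroblast, pigment epithelium and rod nuclei, in CPM on axes that start at 0, with 1 point a library and a bar at the mean of the 4 libraries. Flt1 and Kdr are high in both endothelium and Müller glia, Tek in endothelium, Angpt1 in fibroblasts and Vegfa in pigment epithelium, and Ndp has its highest mean, 32.7, in horizontal cells.

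The receptors in Müller glia were not a matter of a few nuclei. With every nucleus thinned to 1000 UMIs, 74.7% of 3219 Müller nuclei (exact 95% interval 73.1 to 76.1%) and 78.5% of 107 endothelial nuclei (69.5 to 85.9%) had a Flt1 UMI, against 1.21% of 6339 rod nuclei (0.96 to 1.52%), a class that should lack it. For Kdr the shares were 35.4% in Müller glia, 30.8% in endothelium and 1.59% in rods. Without thinning, at median depths of 2812, 1885.5 and 1231 UMIs, Flt1 was seen in 94.5%, 82.2% and 1.63% of nuclei and Kdr in 66.4%, 44.1% and 2.20%. The intervals cover counting error in the pooled nuclei, which are not replicates. Of the 3233 Müller nuclei, 2044 had UMIs of both receptors, 1010 of Flt1 alone, 102 of Kdr alone and 77 of neither.

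The markers of endothelium were near 0 in the Müller glia. The 10 defining endothelial markers together were at 9.15 to 15.1 CPM in Müller glia, below the 31.7 to 49.0 CPM of rods, and the endothelial receptor Tek was at 4.16, 5.03, 4.49 and 8.75 CPM there (5.61 ± 2.13), next to 5.70 ± 2.30 in rods. The Müller class was 1 cluster; another 2 clusters, of 40 and 29 nuclei left, had Müller markers but were set aside because 69.9% and 77.0% of their nuclei had been called doublets.

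**Figure D2:**
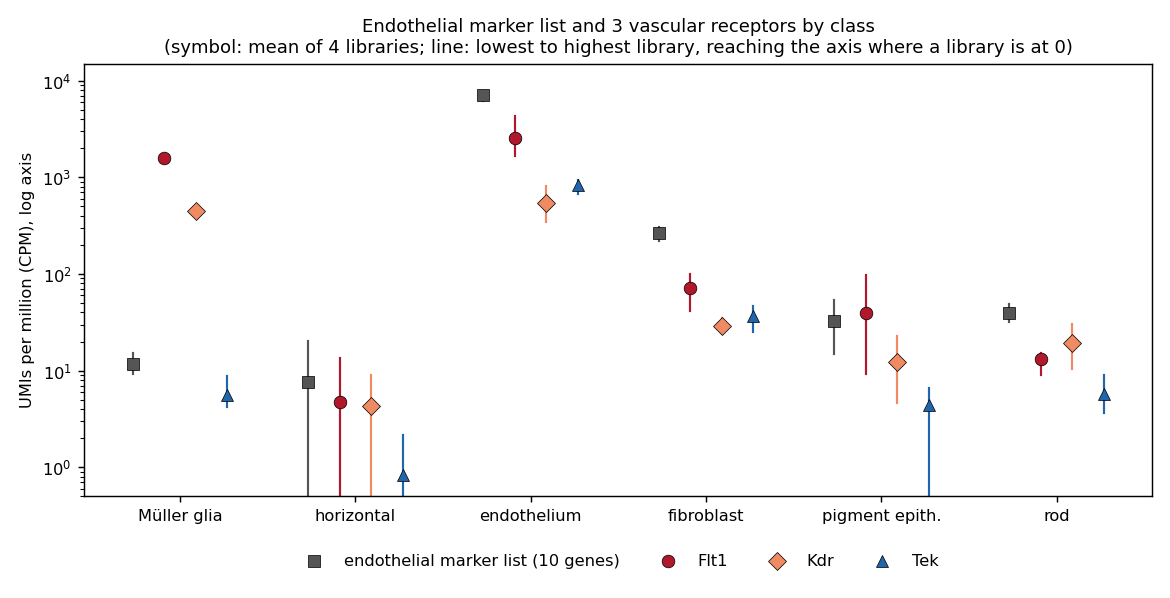
Mean level of Flt1, Kdr and Tek and of the summed 10 endothelial marker genes, in CPM on a log axis, in Müller glia, horizontal cells, endothelium, fibroblasts, pigment epithelium and rods; lines run from the lowest to the highest library and reach the axis where a library is at 0. In Müller glia Flt1 and Kdr, at 1600 and 447, are near their endothelial means of 2580 and 547, and Tek and the marker list lie at or below 15.1 in every library.

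Tek, the Tie2 receptor, was an endothelial gene in these data. Endothelium had 817, 930, 903 and 678 CPM (832 ± 113), and every endothelial library was above every library of the other classes compared. Fibroblasts came next at 42.8, 31.0, 46.7 and 25.3 CPM (36.5 ± 10.0), with most of it in the smallest of the 3 fibroblast clusters, at 139 CPM against 6.97 and 4.41 CPM in the others. The endothelial marker list was also above rods in fibroblasts, at 305, 297, 219 and 242 CPM with UMIs of 9 of its 10 genes, and its part in the fibroblast Tek level was not tested. Pigment epithelium was at 4.41 ± 3.07 CPM and horizontal cells at 0.837 ± 1.04 CPM. Endothelium exceeded fibroblasts by 4.03 on the log2 scale (SE 0.255, edgeR adjusted p = 2.73e-19), and Müller glia were lower than endothelium by 6.33 (SE 0.293, edgeR adjusted p = 1.12e-25). In thinned nuclei a Tek UMI was seen in 50.5% of endothelium, 0.59% of Müller glia and 0.473% of rods.

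Its ligand gene Angpt1 was a fibroblast gene. Fibroblasts had 1170, 1790, 985 and 764 CPM (1180 ± 443), and every fibroblast library was above every library of the other classes compared. The level was not even within the class: the largest cluster had 1870 CPM, the smallest 379 and the remaining one 260. Striated muscle, at 206 ± 149 CPM, macrophages or microglia, at 74.5 ± 76.1, and melanocytes, at 68.4 ± 12.1, came next in the whole set. Endothelium had 89.8, 0, 0 and 17.4 CPM (26.8 ± 42.8), a value that rests on 2.5-month animal 1, and Müller glia had 1.43 ± 0.345 CPM. Müller glia were lower than fibroblasts by 9.24 on the log2 scale (SE 0.303, edgeR adjusted p = 2.16e-33) and endothelium lower by 5.16 (SE 0.457, edgeR adjusted p = 9.55e-14). An antisense gene, Gm17473, overlaps Angpt1, and the strand setting of the counting is not given in the sources used here, so these UMIs could include its reads.

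Ndp, the norrin gene, had few UMIs, and its highest mean was in horizontal cells. They had 19.3, 33.9, 34.8 and 42.9 CPM (32.7 ± 9.84), and Müller glia 18.3, 16.6, 13.8 and 11.4 CPM (15 ± 3.06). Each horizontal library was above each Müller library, by a margin of 19.3 against 18.3 CPM at the closest. The 19.3 CPM comes from 29 nuclei with 207277 UMIs of all genes, so it rests on few Ndp UMIs and this margin is not resolved. Ganglion cells had 6.40 ± 1.41 CPM, fibroblasts 5.53 ± 4.23, amacrine cells 3.83 ± 0.824 and rods 2.25 ± 1.34. Müller glia were lower than horizontal cells by 1.59 on the log2 scale (SE 0.262, edgeR adjusted p = 9.02e-07); in the 2.5-month libraries alone the difference was −0.83 (adjusted p = 0.257). Müller glia were above fibroblasts by 1.85 (SE 0.337, edgeR adjusted p = 6.48e-06). In thinned nuclei a Ndp UMI was seen in 4.35% of horizontal cells, 1.4% of Müller glia and 0.126% of rods.

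Endothelium, which carries the norrin receptor, had no Ndp UMI in any library. With 241820 endothelial UMIs in all, a floor of 3 counts over the class stands at 12.4 CPM. The pooled level of horizontal cells, 36.5 CPM, was 2.94-fold this floor and that of Müller glia, 14.1 CPM, 1.13-fold. The counting error of the pooled levels is not in these ratios. At this depth the difference from Müller glia was hardly resolved. Floors and intervals cover counting error only.

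Fzd4, the receptor of norrin, was high in endothelium and in pigment epithelium. Endothelium had 234, 48.9, 125 and 122 CPM (132 ± 76.1) and pigment epithelium 111, 85.5, 78.8 and 97.8 CPM (93.3 ± 14.3), with overlapping ranges. The fitted difference of endothelium over pigment epithelium was −0.04 (SE 0.3, edgeR adjusted p = 0.965), and its sign turned under 8 of 12 alternatives without a call. Striated muscle had 74.5 ± 39.8 CPM, melanocytes 37.8 ± 14.8 and fibroblasts 31.6 ± 5.25, while Müller glia, at 3.72 ± 1.57, and horizontal cells, at 1.37 ± 1.63, were below the 12.5 ± 1.43 CPM of rods. Endothelium exceeded fibroblasts by 1.77 (SE 0.325, edgeR adjusted p = 2.66e-05), which was no longer called without 2.5-month animal 1 (1.27, adjusted p = 0.125). Müller glia were lower than endothelium by 4.55 (SE 0.405, edgeR adjusted p = 3.54e-14).

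Tspan12, the tetraspanin that strengthens norrin signalling at frizzled 4, was present in endothelium and also in horizontal cells. Endothelium had 180, 97.8, 62.3 and 157 CPM (124 ± 53.7) and horizontal cells 96.5, 52.0, 60.1 and 52.6 CPM (65.3 ± 21.1). The pair overlapped and was not separated by the test, with −0.21 for horizontal over endothelium (SE 0.376, edgeR adjusted p = 0.737). Ganglion cells had 36.3 ± 4.90 CPM, fibroblasts 28.6 ± 18.2, Müller glia 27.1 ± 8.13, rods 3.13 ± 0.986 and pigment epithelium 3.54 ± 3.61. Müller glia were lower than horizontal cells by 1.44 (SE 0.248, edgeR adjusted p = 2.05e-06) and lower than endothelium by 1.65 (SE 0.394, edgeR adjusted p = 0.000781); the latter was −1.15 (adjusted p = 0.12) without 2.5-month animal 1. An antisense gene, Gm30270, overlaps Tspan12, with the same uncertainty as for Angpt1.

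Lrp5, the co-receptor, was shared by endothelium, fibroblasts and Müller glia. Endothelium had 144, 122, 31.1 and 174 CPM (118 ± 61.5), fibroblasts 59.4, 54.7, 73.4 and 75.8 CPM (65.8 ± 10.4) and Müller glia 54.1, 53.9, 64.8 and 56.9 CPM (57.4 ± 5.12). The endothelial library of 5-month animal 1 was below all libraries of the other 2 classes, and the ranges overlapped. Macrophages or microglia had 50.6 ± 33.6 CPM, pigment epithelium 30.5 ± 16.4, rods 2.37 ± 1.13 and horizontal cells 0.865 ± 1.09. Müller glia differed from endothelium by −0.43 (SE 0.310, edgeR adjusted p = 0.339) and endothelium from fibroblasts by 0.54 (SE 0.316, edgeR adjusted p = 0.272), whereas DESeq2 called both, at −0.84 (adjusted p = 0.0131) and 0.89 (adjusted p = 0.0142). Müller glia and fibroblasts were not separated (0.10, SE 0.167, edgeR adjusted p = 0.664). Endothelium exceeded pigment epithelium by 1.52 (SE 0.387, edgeR adjusted p = 0.00204), lost without 2.5-month animal 1 (1.36, adjusted p = 0.0718). Horizontal cells, with the ligand gene Ndp and with Tspan12, had almost no UMIs of Fzd4 or Lrp5.

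Set against the mean of the other named classes, endothelium carried 6 of the 9 genes at a higher level. These were the receptors Flt1 (log2 fold change 6.06, SE 0.205), Kdr (4.41, SE 0.258) and Tek (6.32, SE 0.245), and Fzd4 (3.50, SE 0.346), Tspan12 (3.02, SE 0.420) and Lrp5 (3.25, SE 0.372), with edgeR adjusted p from 4.05e-32 to 5.21e-08. Vegfa was lower by 1.96 (SE 0.462), and Ndp and Angpt1 were not called. Over all genes tested, 9.42% were called higher and 11.3% lower in endothelium, with a median log2 fold change of −0.51.

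Müller glia carried 6 of the 9 at a higher level, Flt1 (6.28, SE 0.132), Kdr (4.82, SE 0.0921), Ndp (3.00, SE 0.294), Lrp5 (2.78, SE 0.140), Tspan12 (1.23, SE 0.194) and Vegfa (0.93, SE 0.0975), and had Angpt1 and Fzd4 lower by 4.07 and 1.44; Tek was not called (−0.53, SE 0.346, edgeR adjusted p = 0.223). The background was 30.3% higher and 14.9% lower. Fibroblasts had 7 of the 9 higher, led by Angpt1 (5.94, SE 0.124), Lrp5 (2.67, SE 0.156) and Tek (1.95, SE 0.239, beside the endothelial markers given above), where 28.9% of all genes were higher and 11.9% lower. Vegfa was among the 7 at 0.28 (edgeR adjusted p = 0.0495), a call lost under 8 of 12 alternatives, whose values ran from −0.10 (2.5-month libraries alone) to 0.56 and were 0.31, 0.09 and 0.26 without 2.5-month animal 2, 5-month animal 1 and 5-month animal 2. Horizontal cells had Ndp (4.73, SE 0.318) and Tspan12 (2.79, SE 0.237) higher and 6 genes lower, against 19.3% higher and 13.7% lower over all genes. The receptors Flt1, Kdr and Tek, with 11, 11 and 3 UMIs there, were among the 6. Their calls were lost in 3, 2 and 3 of 12 alternatives, each of them in the 5-month libraries alone. The calls of Angpt1, Fzd4 and Lrp5 were lost in the 2.5-month libraries alone. All 6 stayed negative throughout. Pigment epithelium had Fzd4 (3.55, SE 0.206), Vegfa (2.61, SE 0.115) and Lrp5 (1.60, SE 0.304) higher, against 17.9% of all genes. Tspan12 alone was lower there (−1.68, SE 0.613, edgeR adjusted p = 0.0342), against 8.73%, and the call was lost without any 1 of the 4 libraries.

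The 5 classes form 10 pairs, and 68 of the 90 tests of a gene in a pair were calls. The members called, of 9, stood as follows beside the share of all genes called in either direction. Müller glia differed from horizontal cells in 6 (40.7% of all genes), from endothelium in 6 (26.5%), from fibroblasts in 7 (44.9%) and from pigment epithelium in 8 (34.5%). Horizontal cells differed from endothelium in 7 (28.7%), from fibroblasts in 8 (45.9%) and from pigment epithelium in 7 (34.3%). Endothelium differed from fibroblasts in 7 (16.7%) and from pigment epithelium in 6 (22.8%), and fibroblasts from pigment epithelium in 6 (34.0%). In every pair the share of the 9 genes was above that of all genes. The 9 were chosen with earlier results of these data known, so this is a description and not a test.

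The 118 endothelial nuclei were of more than 1 kind, and the receptors differed among them. The 3 sub-clusters, formed without the 9 genes, held 57, 46 and 15 nuclei. The first, led by Igfbp3 and Exoc3l2, had 947 CPM of Kdr (exact Poisson 95% interval 785 to 1130) and 1530 CPM of Plvap (1320 to 1760), a component of the diaphragms of fenestrated vessels. The second, led by Vcam1 and Fabp4, had 149 CPM of Kdr (79.5 to 255) and 402 CPM of Plvap (280 to 559). The third, led by Ccl21a, a chemokine of lymphatic vessels, had 107 CPM of Flt1 (22.1 to 313), from 3 UMIs, against 3240 (2930 to 3570) and 2070 (1780 to 2390) in the others. Tek was at 1010, 666 and 393 CPM in the order given. The nuclei of the third came from 2 libraries, 7 from 2.5-month animal 1 and 8 from 5-month animal 1. These 15 nuclei are part of the endothelial levels and tests given above, and no fit was run without them.

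The norrin receptor genes had intervals that overlapped across the 3 sub-clusters. Fzd4 was at 134, 207 and 143 CPM, Tspan12 at 142, 149 and 143 CPM, and Lrp5 at 166, 91.8 and 107 CPM. In the third sub-cluster these values rest on 4, 4 and 3 UMIs, with intervals of 38.9 to 365, 38.9 to 365 and 22.1 to 313 CPM. With so few UMIs, overlap does not show that the levels are alike. Slco1c1, a transporter of barrier-forming vessels, had 1, 0 and 0 UMIs in the 3 sub-clusters and 20 UMIs, 85.3 CPM, in the 37 nuclei set aside, which also had 1070 CPM of Flt1, 230 of Kdr, 222 of Tek and 25.6 of Fzd4. Those 37 nuclei held 2880 CPM of the endothelial list, against 4000 to 7970 in the 3 sub-clusters. They also held 1080 CPM of the amacrine list, 2450 of the Müller list and 2030 of the melanocyte list. The 3 sub-clusters had 111 to 195, 535 to 1270 and 276 to 428 CPM of these lists, in the same order. Slco1c1 was at 184 ± 14.7 CPM in Müller glia and 334 ± 35.1 CPM in pigment epithelium. The source of its UMIs in the 37 nuclei was not tested. The sub-clusters come from pooled nuclei and were not compared by a test. The labels do not say how much choroid was taken with the retina.

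**Figure D3:**
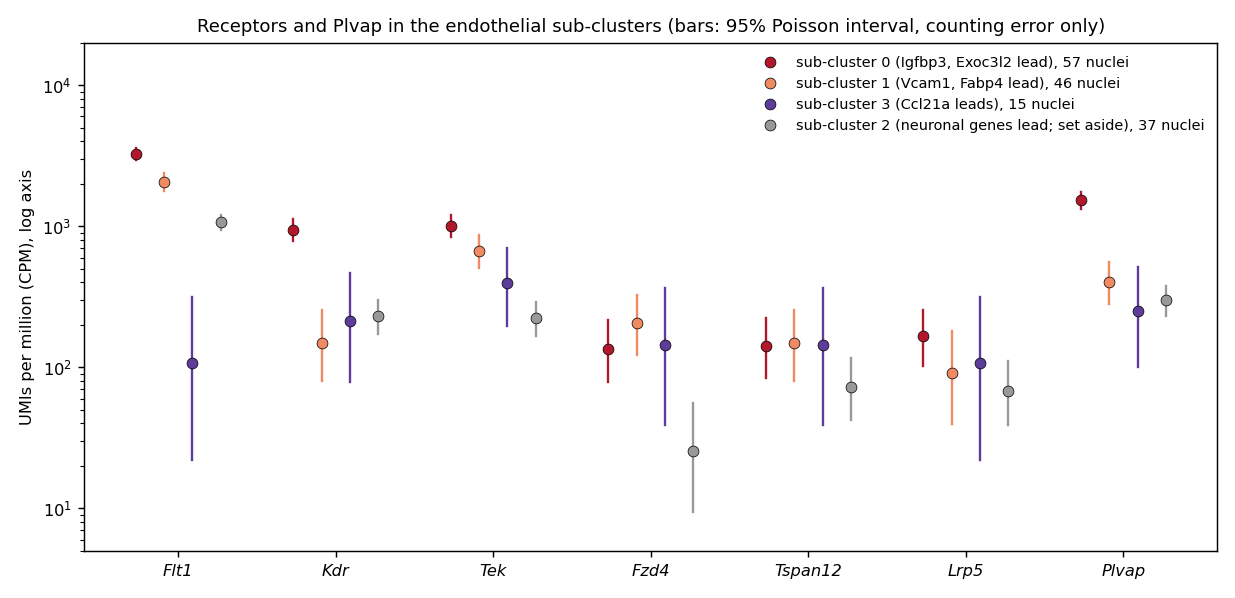
Levels of Flt1, Kdr, Tek, Fzd4, Tspan12, Lrp5 and Plvap in the 3 endothelial sub-clusters and in the 37 nuclei set aside, in CPM on a log axis, with points for the pooled nuclei and bars for exact 95% Poisson intervals. Kdr and Plvap are highest in the sub-cluster of 57 nuclei, at 947 and 1530, Flt1 is lowest in the sub-cluster of 15, at 107, and the 3 norrin receptor genes have overlapping intervals across the 3 sub-clusters.

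Other genes of the same pathways were taken from 7 lists and counted in the same fit, so the background shares of each class apply. In endothelium, 6 of 7 tested genes of the VEGF family were higher and none lower (median log2 fold change 3.19 against −0.51 for all genes). Flt4, the receptor of lymphatic growth factors, was at 204 CPM and higher by 6.85, Vegfc, its ligand, at 344 CPM and 4.24, and the co-receptor Nrp1 at 994 CPM and 3.77. Of the angiopoietin and Tie list 2 of 6 were higher, Tie1 (427 CPM, 10.0) and the phosphatase Ptprb (1630 CPM, 8.43), which acts on Tie2. Of the other vascular signals 12 of 20 were higher, among them Eng (1060 CPM, 7.60), Dll4 (7.42) and Esm1 (7.22). Of the list of endothelial barrier genes 5 of 9 were higher, among them the tight junction gene Cldn5 (500 CPM, 8.22) and the efflux pump Abcb1a (263 CPM, 5.81). The 5 include Plvap (998 CPM, 6.89), the gene of fenestrated vessels described above, so their number is not a measure of barrier formation. On the same list, Slco1c1 had 1, 0 and 0 UMIs in the 3 sub-clusters, Mfsd2a 0, 1 and 0, and Slc38a5 0 in each. Of 19 norrin and Wnt genes 7 were higher and 2 lower, with Sox18 (8.39), Sox7 (7.04) and Lef1 (6.20) in front.

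In Müller glia, where 30.3% of all genes were higher and 14.9% lower, the norrin and Wnt list stood furthest above those shares among the lists described. Of the norrin and Wnt genes 11 of 19 were higher and 2 lower (median 0.79, all genes 0.08), led by the Wnt feedback gene Nkd1 (131 CPM, 5.50), the Wnt7 co-receptor Adgra2 (255 CPM, 4.68) and the nuclear factor Tcf7l2 (624 CPM, 4.55). Of the hypoxia genes 4 of 10 were higher, among them Hif3a (127 CPM, 5.93) and Epas1 (104 CPM, 1.56), and 3 lower, with Hif1a lower by 0.48. Of the VEGF family 2 of 7 were higher and 1 lower, with Vegfd at 1.16, Nrp1 at 0.66 and Nrp2 at −2.12. Among the other vascular signals 7 of 20 were higher and 6 lower; Notch1 (4.92), Col18a1, which encodes the precursor of endostatin (3.68), and Tgfb2 (3.44) led. Of the barrier genes 4 of 9 were higher and 1 lower, with Slco1c1 at 184 ± 14.7 CPM (4.56).

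Fibroblasts had 5 of 7 VEGF family genes higher, led by Pgf, a ligand of Flt1 (112 CPM, 5.78), Nrp1 (3.67) and Nrp2 (3.55). Also higher were 4 of 6 angiopoietin and Tie genes, led by Svep1 (6.40), 12 of 19 norrin and Wnt genes and 16 of 20 other vascular signals. None was lower in these 4 lists. Of their hypoxia genes 6 of 10 were higher and 1 lower (Hif1a, −0.49). Of their barrier genes 4 of 9 were higher and 1 lower (Slc2a1, −0.65). Among the genes higher in fibroblasts were Tie1, at 3.44 ± 2.87 CPM, and Cldn5, at 13.0 ± 5.88 CPM, both far higher in endothelium. The part of the endothelial markers given above in the fibroblast calls of these lists was not tested. Pigment epithelium had 9 of 19 norrin and Wnt genes higher, led by Rnf43 (4.05), a brake on frizzled receptors, and Tnfrsf19 (2.82). Of its 10 hypoxia genes 1 was called, Epas1, higher by 2.84, a smaller share than the 17.9% of all genes. Of its VEGF family genes 3 of 7 were higher, led by Vegfc (69.0 CPM, 2.58), and 1 was lower. Of its barrier genes 5 of 9 were higher, among them Mfsd2a (6.08) and Slco1c1 (334 ± 35.1 CPM, 5.45), and Tjp1 was lower (−0.76). Horizontal cells had no gene of the VEGF family or of the other vascular signals higher, with 3 of 7 and 10 of 20 lower. Angpt2, the ligand that competes with Angpt1 at Tie2, was higher there by 4.0 (SE 0.224), at a mean of 77.3 CPM (48.2 to 93.4 over the libraries), against 3.82 ± 2.19 in Müller glia and 9.60 ± 2.94 in fibroblasts. In endothelium it was at 47.3 ± 83.1 CPM from 9 UMIs, all in the sub-cluster of 57 nuclei, at 71.0 CPM (32.5 to 135), an interval that includes the mean of horizontal cells.

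The profile of Flt1 over the 13 class means was most like that of Kdr (Pearson r of log2(CPM + 1) 0.946), followed by Cp and Notch1 (0.942 each), and that of Kdr most like Flt1, Nrarp (0.926) and Gm13613 (0.925). Tek was most like the endothelial genes Grrp1 (0.95), Gja4 (0.934) and Igfbp3 (0.93), and Angpt1 most like Gm43824 (0.917), Wnt4 (0.898) and Bicc1 (0.896), all highest in fibroblasts. Vegfa was most like Pcx (0.868), Ush1c (0.832) and Atp13a5, and Ndp most like Gfra2 (0.855), Begain (0.843) and Adcy5 (0.82), which were highest in horizontal cells. Fzd4 was most like mt-Atp8 (0.946), Fibp (0.94) and Lpin3 (0.938), Tspan12 most like Plbd2 (0.91), Rbfox2 (0.873) and Sema6a (0.872), and Lrp5 most like Zfp36l1 (0.977), Slc12a4 (0.974) and Pdlim1 (0.969). These are descriptions over 13 classes that share libraries and differ in depth, among 15268 genes with at least 10 CPM in a class.

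Between the ages, no gene of the 9 passed the threshold in any class. Of 60 edgeR tests over 11 classes with at least 20 nuclei in each library, 0 were called, and 8 had an unadjusted p under 0.05. DESeq2, fitted without the count filter, called 0 of 99. Few genes of any kind were called: 0.0953% of all genes tested in Müller glia, 0.0969% in horizontal cells, 0.00844% in fibroblasts, 0.0475% in pigment epithelium, 0.0487% in rods, 0.0414% in amacrine cells, 0.0522% in cones, 0.0682% in bipolar cells, 0.0596% in ganglion cells, 0.00% in melanocytes and 0.0355% in macrophages or microglia. Endothelium had 15 nuclei in one library and was not tested. In Müller glia, Flt1 differed between the ages by 0.11 (edgeR adjusted p = 0.917) and Kdr by 0.18 (adjusted p = 0.856).

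Vegfa had the same sign in every class tested, though the ages overlapped in the largest fibroblast cluster. Its fitted level was higher at 5 months in all 10 classes in which it was tested, by 0.21 to 1.12 on the log2 scale. The edgeR adjusted p was between 0.344 and 0.962, and the unadjusted p was under 0.05 in 5 of these classes. Over the main fits and the alternatives run, Vegfa was higher in 112 of 112. These refit the same 4 libraries and are no further support. The largest difference was in fibroblasts, 88.5 ± 12.9 CPM at 2.5 months and 187 ± 39.0 at 5 months (1.11, SE 0.274, edgeR adjusted p = 0.344). Within fibroblasts the 3 clusters differed. The smallest had 141 and 178 CPM at 2.5 months and 619 and 479 CPM at 5 months, whereas in the largest the ages overlapped, at 61.3 and 68.2 CPM and then 93.2 and 58.8 CPM. The middle cluster had 50.2 and 96.0 CPM and then 101 and 139 CPM. Rods went from 23.3 ± 1.65 to 44.7 ± 2.23 CPM (0.96, SE 0.218, adjusted p = 0.542) and Müller glia from 133 ± 17.6 to 190 ± 8.05 CPM (0.56, SE 0.176, adjusted p = 0.666).

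Both 5-month libraries were above both 2.5-month libraries in 9 of these classes, and horizontal cells were the exception. The same was true of 17.3% of genes with at least 10 UMIs in rods, 23.3% in amacrine cells, 16.8% in Müller glia, 18.1% in cones, 20.3% in bipolar cells, 17.1% in ganglion cells, 16.6% in fibroblasts, 14.5% in melanocytes, 12.8% in horizontal cells and 12.7% in pigment epithelium. The classes of an animal share its library, so these are not independent observations. Doublets were called almost only at 5 months, and Vegfa was also higher at 5 months in each class fitted with called doublets kept or with the same share of high scores removed from each library.

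**Figure D4:**
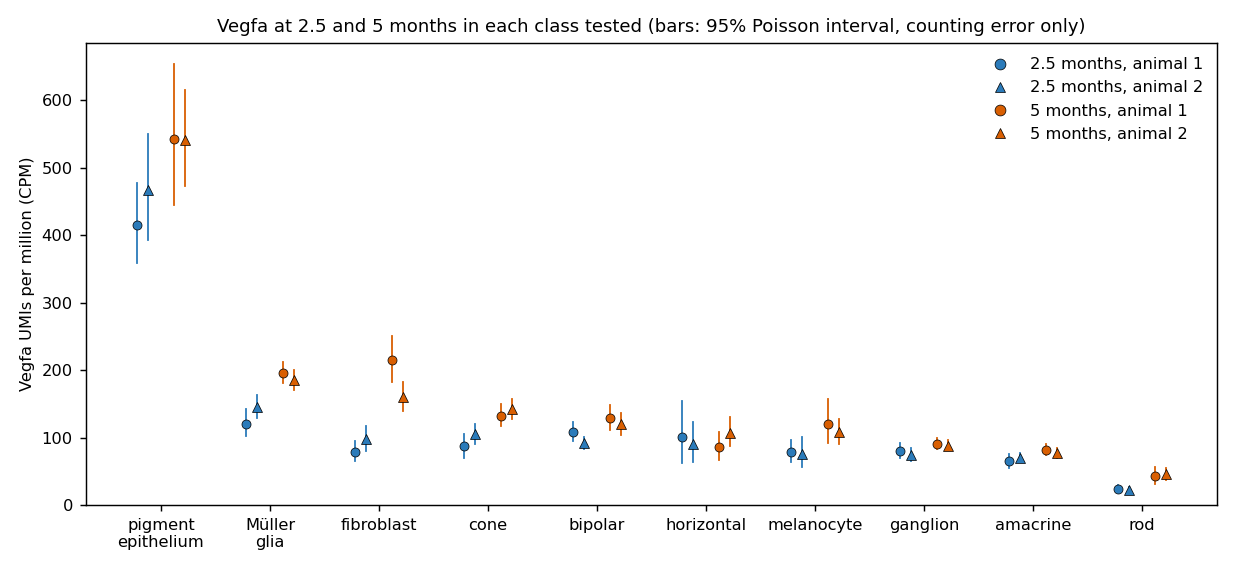
Level of Vegfa in the 10 classes with an age test, in CPM on an axis that starts at 0, with 1 point a library and bars for its exact 95% Poisson interval, which covers counting error only. The points of both 5-month animals lie above those of both 2.5-month animals in 9 classes and overlap them in horizontal cells.

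Whether the age difference of a gene was different in Müller glia and in another class was tested directly. Of 23 edgeR tests and 27 DESeq2 tests, 0 were called, and 2 and 0 had an unadjusted p under 0.05. Over all genes, 0.633% were called against horizontal cells, 0.218% against fibroblasts and 0.111% against pigment epithelium. For Ndp the age difference was −0.42 in Müller glia and 0.63 in horizontal cells, and the test of their difference gave −1.04 (SE 0.523, edgeR adjusted p = 0.796), and the difference for Vegfa between Müller glia and fibroblasts was −0.54 (SE 0.238, edgeR adjusted p = 0.671).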

How the data were processed

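The deposited values are unnormalised UMI counts, as whole numbers by gene and droplet barcode, in 4 libraries of nuclear RNA from mouse retina. Per the file headers, Cell Ranger 7.1.0 made both 2.5-month tables and Cell Ranger 4.0.0 both 5-month tables; per the submitters' processing notes the genome build was mm10. Whether intron reads were counted, and on which strand, is not given in the sources used here; introns make up between 23.5% (Fzd4) and 97.9% (Angpt1) of the genes' spans (GENCODE M21, GRCm38).

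Nuclei were clustered and scored for doublets in Python 3.11.15 with scanpy 1.11.5. The doublet caller marked 0.0406% and 0.0135% of the 2.5-month nuclei and so had not worked there, against 8.92% and 7.87% at 5 months; called nuclei were removed. Of 49 clusters, 36 were named from marker genes, with at least 3 markers raised; clusters led by genes that go against the name were set aside, as was a mixed endothelial sub-cluster, both after seeing the data. UMI counts were summed per class and library, with at least 10 nuclei in a class comparison and 20 in an age test, and fitted with edgeR 4.0.16 (TMM, filterByExpr, quasi-likelihood test, two-sided). DESeq2 1.42.0, no count filter, each library left out, each age alone, other doublet handling and a minimum of 1000 UMIs were the alternatives. The fits were tested on simulated data, where recovery was lower in endothelium than in Müller glia; an endothelial difference that was not called may still exist.

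The 9 genes were counted in each comparison in which they were tested, and only some of them are named there. Of the pathway lists (83 of 84 genes present), the genes named are among up to 3 per list and direction by size of the change among calls. Some lists and calls are not described, so a gene left unnamed may still have been called. For likeness, the genes with the highest correlation are named. The genes and lists were chosen with earlier results of these data known. Each library was taken as 1 animal because the labels number the donors. In comparisons of classes, with library as a block, p-values measure the variation left once differences between libraries shared by all classes are removed. These p-values do not measure the full spread between the 4 animals. In the age tests, p-values measure the spread between animals of the same age. No sample column was left unused.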

Additional observations from a re-analysis of the deposited data

Results flagged for a closer look

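In 3 cases 1 library stood apart from the others of its class by Dixon's criterion at 95%, among 44 gene-by-class groups checked; chance flags about 1 in 20 groups. Flt1 in Müller glia was 1720 CPM in 5-month animal 1 and between 1560 and 1580 CPM in the other 3 libraries. Angpt1 in horizontal cells was 9.65 CPM in 2.5-month animal 1, with 29 such nuclei, and 2.15 to 2.40 CPM in the others; it rests on 2 UMIs (exact Poisson 95% interval 1.17 to 34.9 CPM, which includes the others) and lies under that library's floor of 14.5 CPM for 3 counts. Ndp in pigment epithelium was 3.29 CPM in 2.5-month animal 2 and 0 in the others; this is the only UMI of Ndp in the class and lies under the floor of 9.86 CPM.

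In several genes both 5-month libraries lay above both 2.5-month libraries in some classes and below both in others. None of the single differences was called. The same upward separation held for 23.3% of genes with at least 10 UMIs in amacrine cells and 18.1% in cones. It held for 17.1% in ganglion cells and 12.8% in horizontal cells, and the share for the downward direction was not counted. Angpt1 was higher at 5 months in amacrine cells, by 0.75 on the log2 scale (8.45 to 14.3 CPM), and lower in fibroblasts, at −0.72 (1480 to 875 CPM), and in melanocytes, at −0.25 (75.4 to 61.5 CPM). In the fibroblast cluster with most Angpt1 the ages overlapped, at 1720 and 2770 CPM and then 1860 and 1300 CPM; it held 258 of 451, 170 of 287, 121 of 298 and 364 of 634 fibroblast nuclei in 2.5-month animals 1 and 2 and 5-month animals 1 and 2, and the part of this make-up in the class value was not tested. Fzd4 was higher in cones, by 0.37 (4.93 to 6.31 CPM), and lower in fibroblasts, at −0.36 (35.9 to 27.3 CPM). The differences between these classes were not tested. Ndp was higher in ganglion cells, by 0.56 (5.25 to 7.54 CPM), and in horizontal cells, by 0.63 (26.6 to 38.9 CPM), and lower in Müller glia, at −0.42 (17.5 to 12.6 CPM); the difference between Müller glia and horizontal cells was tested and had an edgeR adjusted p of 0.796.

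Flt1 in melanocytes had the smallest unadjusted p of the age tests of the 9 genes, at 71.2 and 93.5 CPM in the 2.5-month animals and 35.5 and 12.8 CPM in the 5-month animals (−1.91, SE 0.423, edgeR adjusted p = 0.619). The value turned to 0.93 with called doublets kept and to 1.99 with the same share of high doublet scores removed from each library.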

How the results depend on the processing

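Of 288 alternatives to the named differences between classes, 259 kept the direction and the side of the threshold, 15 reversed, 9 lost a call and 5 gained one; for the age differences of named genes the counts were 135 of 140, 2, 0 and 3, and all 16 alternatives of the 2 interactions named kept theirs. The cause of a change was not tested. Reversed values were of uncalled differences. Vegfa in horizontal cells over fibroblasts was −0.07 without 2.5-month animal 1 and up to 0.39 with another library left out, and −0.22 in the 5-month libraries alone. Flt1 in Müller glia over endothelium was −0.21 with DESeq2 and −0.23 in the 2.5-month libraries alone, where Kdr was −0.12. Tspan12 in horizontal cells over endothelium was 0.04 without 2.5-month animal 1, down to −0.35 with another library left out, and 0.09 in the 5-month libraries alone. Fzd4 in endothelium over pigment epithelium was 0.26 with DESeq2, 0.10 without a count filter, 0.14 without 2.5-month animal 2, 0.09 without 5-month animal 2 and −0.54 without 2.5-month animal 1, 0.18 with called doublets kept, 0.01 with at least 1000 UMIs a nucleus, 0.03 with the highest 6% of doublet scores removed and 0.28 in the 2.5-month libraries alone. Flt1 by age in melanocytes was 0.93 with called doublets kept and 1.99 with the highest 6% of scores removed.

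The count of the 9 genes called in horizontal cells, 8, was 4 in the 2.5-month libraries alone and 5 in the 5-month libraries alone. Leaving out 1 library at a time gave 6 to 9 there, 8 in each case for Müller glia, 7 for endothelium, 5 to 7 for fibroblasts, 3 for pigment epithelium (main 4) and 62 to 70 for the 10 pairs (main 68). Calls by age went from 0 to 2 without a count filter (Vegfa in fibroblasts 1.10, adjusted p = 0.0392; Flt1 in melanocytes −1.92, adjusted p = 5.2e-05), and were 0 to 1 with a library left out, at Flt1 in melanocytes without 2.5-month animal 2 (−1.72, adjusted p = 0.00978) and Flt1 in pigment epithelium without 5-month animal 2 (adjusted p = 0.0257). The interaction calls were 0 to 1 with a library left out, at Flt1 without 5-month animal 1 (adjusted p = 0.0154). With a replicate block on the donor number, age calls stayed at 0; the numbers pair no animals, and the correlations of animal 1 minus animal 2 between the ages were 0.015, 0.00993, −0.0996 and 0.00411 in Müller glia, horizontal cells, fibroblasts and pigment epithelium.

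Counting every UMI instead of 1000 a nucleus raised the shares with a UMI to 94.5% (Flt1, Müller glia), 80.6% from 38.7% (Vegfa, pigment epithelium), 49.0% from 37.4% (Angpt1, fibroblasts) and 22.7% from 4.35% (Ndp, horizontal cells). Depth limits Ndp throughout and every endothelial value, which rest on 241820 UMIs.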

Other observations

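A cluster of 453 nuclei was left unnamed because it had as many horizontal as amacrine markers raised. It had 103 CPM of Kdr (exact Poisson 95% interval 89.6 to 117), above every named class except endothelium and Müller glia, with 3.63 CPM of Flt1 (1.57 to 7.15) and 12.3 CPM of Tek (8.08 to 17.8). Its Vegfa level was 122 CPM and its Ndp level 6.81 CPM. It made up between 0.664% and 1.91% of the nuclei of a library. These values come from pooled nuclei and were not tested.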
